A study of Homo sapiens with 6 samples.

Results

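The genes described here are 10 regulators of the actin cytoskeleton known from leukocytes: LCP1, PLEK, LSP1, CORO1A, WAS, ARHGDIB, HCLS1, ARPC1B, CAPG and TMSB4X. They were selected on their function and on their TPM in the HA-TAZ against the control libraries, which was known when the set was put together. Their transcripts were found by gene symbol and summed per Ensembl gene ID. They make up 10 of 63677 gene IDs in the table and 10 of 22651 that were tested. RNA came from KMS27, an established human myeloma line, that is, malignant plasma cells. The labels give 3 samples of wild type cells and 3 of HA-TAZ cells. HA-TAZ is the product of WWTR1, a transcriptional coactivator of the Hippo pathway, carrying the peptide tag HA and overexpressed. The design text asks how the transcriptome changes upon HA-TAZ overexpression.

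Both groups are 1 cell line, and neither the construct and promoter that drive HA-TAZ nor the way it was delivered is given in the sources used here. The titles of the wild type samples also carry HA, and no label says whether these cells received a construct. The 3 value columns that do not name TAZ carry the name scr, which no label uses. By elimination these columns are the wild type samples, and they are named control a, b and c below. Libraries were made in triplicate, and the labels do not say whether they came from separate cultures, so the spread between libraries may be technical. Total RNA was depleted of ribosomal RNA, so partly spliced RNA is measured as well.

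Actin exists as monomers and as filaments, and cells shape it with proteins that hold monomers, start branches, cap or cut filaments and tie them into bundles. Leukocytes use a partly distinct set of these proteins, several of which have broadly expressed paralogues. PLEK, pleckstrin, is a protein kinase C substrate best known from platelets and other blood cells, and LCP1, L-plastin, bundles actin filaments.

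LCP1 and PLEK were higher in all 3 HA-TAZ libraries than in any control library, by 1.84-fold and 8.80-fold in mean scaled TPM. TMSB4X, which sequesters actin monomers, was 1.41-fold higher. None of the other 7 members passed the threshold. TPM is a transcript's share of a library corrected for transcript length, and scaled TPM is TPM divided by a factor for each library (0.866, 0.967 and 0.890 for HA-TAZ 1 to 3, and 1.21, 1.09 and 1.06 for control a to c). The log2 difference is HA-TAZ minus control on log2(scaled TPM + 1), which understates differences of genes near 1 TPM, and a gene is called where the adjusted p of limma over all tested genes was under 0.05. Because the contrast was known when the members were chosen, their differences are descriptions and no p is given for them.

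The promoter windows of the 3 called members are shown because these are the genes with higher RNA in HA-TAZ cells. Each line holds the 250 bases before the annotated start in RefSeq (GRCh38.p14), read on the strand of the gene: PLEK at chr2:68365032-68365281 on the plus strand, LCP1 at chr13:46182178-46182427 on the minus strand and TMSB4X at chrX:12974860-12975109 on the plus strand. Capitals mark the matches to the motifs that were searched.
PLEK: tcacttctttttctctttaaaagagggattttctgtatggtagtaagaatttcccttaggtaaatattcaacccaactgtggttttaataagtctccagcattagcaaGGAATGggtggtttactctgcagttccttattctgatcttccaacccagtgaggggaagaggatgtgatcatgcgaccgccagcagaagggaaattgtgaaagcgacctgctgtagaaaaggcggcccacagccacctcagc
LCP1: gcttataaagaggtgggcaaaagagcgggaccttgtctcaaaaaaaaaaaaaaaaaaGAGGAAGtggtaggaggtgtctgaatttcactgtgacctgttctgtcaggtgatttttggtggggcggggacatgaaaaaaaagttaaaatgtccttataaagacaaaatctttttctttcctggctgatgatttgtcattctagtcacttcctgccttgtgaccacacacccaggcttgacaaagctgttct
TMSB4X: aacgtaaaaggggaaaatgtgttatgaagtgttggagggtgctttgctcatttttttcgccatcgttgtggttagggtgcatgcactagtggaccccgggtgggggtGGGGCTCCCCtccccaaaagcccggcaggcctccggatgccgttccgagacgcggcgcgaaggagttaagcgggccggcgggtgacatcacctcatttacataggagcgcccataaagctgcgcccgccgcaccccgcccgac

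Windows were searched on both strands for a TEAD motif (GGAATG), the partner of TAZ on DNA, and for motifs of factors known from blood cells: PU.1 and other ETS factors (GAGGAAG), AP-1 (TGANTCA), STAT (TTCNNNGAA), IRF, NF-kB and the SRF CArG box. The ARHGDIB, CAPG, HCLS1, CORO1A and WAS windows were searched as well, so 8 of the 10 members were covered, with 14 windows. The PLEK window held GGAATG starting 142 bases before the start, a motif found in 11.9% of 35116 RefSeq windows of this length. The LCP1 window held GAGGAAG starting 193 bases before the start, found in 11.2% of windows. The TMSB4X window held an NF-kB match starting 143 bases before the start, found in 9.96% of windows, and 1 of 4 CAPG windows held the same letters. These are matches of letters in the window, and no binding was measured here. AP-1 letters were present in windows of CAPG, HCLS1 and ARHGDIB (6.57% of all windows) and a CArG box in 1 ARHGDIB window (1.16%). The STAT letters (6.57%) and the IRF letters (3.02%) were in none of the 14 windows.

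WWTR1 was at 293, 306 and 293 TPM in HA-TAZ 1, 2 and 3 and at 2.69, 2.22 and 1.69 TPM in control a, b and c, a ratio of 135 that matches the labels of the columns. All values per library are shares that sum to the same total, so read depth per library is unknown. The abundant short RNAs RN7SL1 and RN7SL2 took 14.1% to 15.6% of the HA-TAZ libraries and 9.27% to 12.5% of the controls, and between 20534 and 21395 genes reached 1 TPM in HA-TAZ against 23120 to 23807 in controls. The scaling factors separate the groups as well, and members are given on both scales. The part of these differences in the members' values was not tested. Levels given as TPM without the word scaled, as for most paralogues, are as deposited. Marker genes were counted by their mean over the 6 libraries. Of 10 plasma cell markers, 9 were at 1 TPM or more, with summed levels of 2785 to 3217 TPM in HA-TAZ and 4270 to 4825 TPM in controls, most of it from IGJ, and the part of this in the members' values was not tested. Among 5 platelet markers, 0 reached 1 TPM on this mean, though GP1BA was at 1.08 ± 0.144 TPM in the controls (SD, n = 3), and PF4 and PPBP were listed at 0 in all libraries, with sums of 0.836 to 1.23 TPM in HA-TAZ and 1.13 to 1.38 TPM in controls. Of 9 myeloid markers, 1 (CSF1R) reached 1 TPM, S100A8 and S100A9 were listed at 0, and the sums were 3.10 to 3.91 TPM in HA-TAZ and 3.03 to 3.35 TPM in controls. Of the myeloid markers, ITGAM was picked after its values were seen. ITGAM was higher in HA-TAZ without overlap, at 0.927, 1.68 and 1.35 scaled TPM against 0.396, 0.574 and 0.764. Its mean over the 6 libraries was under 1 TPM, so it was not fitted. Its part in the members' values was not tested. Among the 22651 genes that were fitted, 38.5% had groups apart in this way. The groups overlapped for CSF1R, which was fitted and not called, with a log2 difference of 0.07 on scaled TPM. Markers of mature B cells and T cells reached 1 TPM in 1 of 6 (CR2) and 1 of 7 (CD3G). In bulk RNA, fewer cells of a type and less RNA per cell cannot be told apart.

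PLEK was at 7.53, 8.69 and 7.56 scaled TPM in HA-TAZ 1, 2 and 3 and at 0.811, 0.915 and 0.975 in control a, b and c. The lowest HA-TAZ library was above the highest control library by a wide margin, and the controls stayed near the level of the filter, a mean of 1 TPM. The log2 difference was 2.23 (SE 0.10), rank 17 of 22651 tested genes. In TPM as deposited PLEK ran from 6.52 to 8.40 in HA-TAZ and from 0.981 to 1.03 in controls, a ratio of means of 7.19. The log2 difference was 3.00 with a pseudocount of 0.1, as the controls are near 1 TPM, and 1.35 with protein-coding transcripts only, a setting chosen after seeing the data. The coding transcript alone was at 2.56 ± 0.194 scaled TPM in HA-TAZ against 0.329 ± 0.050 in controls (SD, n = 3 each). At such levels the pseudocount of 1 lowers the log2 difference further, so 1.35 understates the difference of the coding transcript. PLEK2, the other pleckstrin, which is expressed more widely, was at 0.592 ± 0.261 TPM in HA-TAZ against 0.779 ± 0.269 TPM in controls (SD, n = 3 each), too low to be tested. PLEK made up 92.5 ± 3.03% of the summed TPM of both pleckstrins in HA-TAZ and 57.2 ± 8.69% in controls.

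LCP1 was at 70.6, 71.5 and 68.2 scaled TPM in HA-TAZ 1, 2 and 3 and at 37.7, 38.4 and 38.3 in control a, b and c. The groups were far apart relative to the spread within each of them. The log2 difference was 0.86 (SE 0.04), rank 402 of 22651. In TPM as deposited LCP1 was at 63.7 ± 4.74 and 42.7 ± 2.68 (SD, n = 3 each), a ratio of 1.49, and the groups did not overlap on that scale either. Its paralogue PLS1, I-plastin, was at 5.52 ± 0.364 TPM and 6.36 ± 0.103 TPM, and PLS3, T-plastin, was at 0.0599 and 0.0359 TPM, below the filter. LCP1 was 91.9 ± 0.339% of plastin TPM in HA-TAZ and 86.9 ± 0.816% in controls (SD, n = 3 each).

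TMSB4X, thymosin beta-4, was at 1286, 1223 and 1207 scaled TPM in HA-TAZ 1, 2 and 3 and at 787, 894 and 959 in control a, b and c. All HA-TAZ libraries were above all controls, and control a was the lowest. The log2 difference was 0.50 (SE 0.09), rank 1194 of 22651. In TPM as deposited the means were 1123 ± 54.8 and 980 ± 31.5 (SD, n = 3 each), a ratio of 1.15, and the groups still did not overlap. The log2 difference on that scale was 0.20, which was not called, so the call of TMSB4X rests on the scaling. It was also lost without a filter on level, in limma without an intensity trend, and in 5 of 6 fits that left out 1 library, all but the one without control c. Its paralogue TMSB10, thymosin beta-10, was called higher, at 1016 ± 37.2 against 661 ± 53.1 scaled TPM (SD, n = 3 each), with a log2 difference of 0.62 and an adjusted p of 0.0160 by limma. TMSB10 was also called with TPM as deposited, at 0.32 (limma adjusted p = 0.0314). TMSB4X was 54.9 ± 1.26% of the TPM of these 2 thymosins in HA-TAZ and 57.1 ± 0.970% in controls. TMSB15A was at 1.12 and 1.21 TPM.

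**Figure D1:**
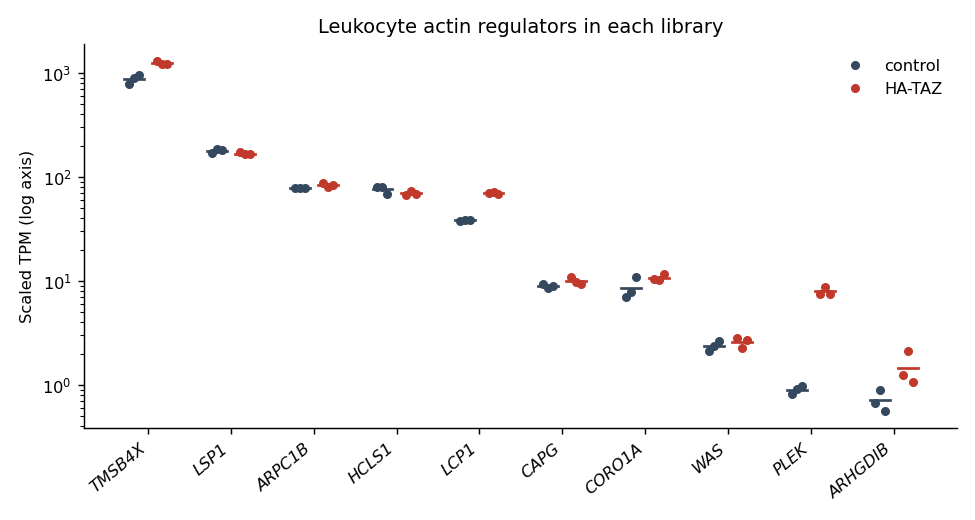
Scaled TPM on a log axis for each of the 10 genes, with a point for each of the 3 HA-TAZ (red) and 3 control (dark) libraries and a line at each group's mean. PLEK, LCP1 and TMSB4X have all HA-TAZ points above all control points, as do ARHGDIB and ARPC1B by small margins.

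LSP1 binds filamentous actin in leukocytes. It was at 172, 165 and 164 scaled TPM in HA-TAZ 1, 2 and 3 and at 170, 184 and 183 in control a, b and c. The groups overlapped through HA-TAZ 1 and control a, and the log2 difference was -0.10 (SE 0.05). In TPM as deposited the groups were apart, at 146 to 159 in HA-TAZ and 193 to 206 in controls, and LSP1 was called lower there, at -0.40. A second gene ID with the symbol LSP1 was listed at 0.

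HCLS1, the haematopoietic relative of cortactin that binds the Arp2/3 complex, was at 66.4, 72.9 and 68.5 scaled TPM in HA-TAZ 1, 2 and 3 and at 80.1, 80.3 and 69.1 in control a, b and c. Control c lay within the range of HA-TAZ, and the log2 difference was -0.14 (SE 0.07). In TPM as deposited the groups were apart, at 57.5 to 70.5 in HA-TAZ and 73.1 to 96.8 in controls, with a log2 difference of -0.44 (SE 0.13) that was not called. HCLS1 was 65.0 ± 2.48% of the summed TPM of HCLS1 and CTTN in HA-TAZ and 69.4 ± 3.58% in controls (SD, n = 3 each). CTTN, cortactin, was at 33.7 ± 1.89 and 37.4 ± 0.991 TPM as deposited, with a log2 difference of 0.14 on scaled TPM that was not called.

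WAS, the Wiskott-Aldrich syndrome protein that activates the Arp2/3 complex in blood cells, was at 2.80, 2.25 and 2.72 scaled TPM in HA-TAZ 1, 2 and 3 and at 2.14, 2.35 and 2.61 in control a, b and c. The ranges overlapped and the log2 difference was 0.09 (SE 0.11). A second gene ID carries the same 6 values, so reads of the copies cannot be told apart, and the level of WAS is uncertain. Summed over both copies, WAS was at 4.68 ± 0.282 TPM with HA-TAZ against 5.27 ± 0.222 TPM without (SD, n = 3 each). As deposited, the log2 difference of WAS was -0.12, the opposite sign. WASL, the broadly expressed relative, was at 6.71 ± 0.467 and 8.14 ± 0.404 TPM as deposited. On scaled TPM its log2 difference was 0.02, not called.

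ARPC1B, a subunit of the Arp2/3 complex that branches filaments, was at 87.1, 79.8 and 83.4 scaled TPM in HA-TAZ 1, 2 and 3 and at 77.3, 78.2 and 77.4 in control a, b and c. The groups did not overlap, but HA-TAZ 2 exceeded the highest control by little, and the log2 difference of 0.10 (SE 0.05) was not called. In TPM as deposited the order was the other way, with 74.2 to 77.2 in HA-TAZ below 81.8 to 93.5 in controls and a log2 difference of -0.20. ARPC1B was 50.8 ± 0.187% of the TPM of both ARPC1 subunits in HA-TAZ and 54.0 ± 1.74% in controls, a share that scaling cannot move. ARPC1A was at 73.1 ± 1.26 and 73.9 ± 3.03 TPM as deposited and at 80.6 ± 3.31 and 66.3 ± 4.94 scaled TPM. Its groups were apart on scaled TPM, and its log2 difference of 0.28 was not called (limma adjusted p = 0.0602).

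CORO1A, a coronin that binds filaments and the Arp2/3 complex in leukocytes, was at 10.5, 10.2 and 11.6 scaled TPM in HA-TAZ 1, 2 and 3 and at 7.07, 7.82 and 10.9 in control a, b and c. Control c was high and overlapped HA-TAZ, and the log2 difference was 0.31 (SE 0.16). As deposited it was 0.04 (SE 0.13), with means of 9.75 ± 0.593 and 9.53 ± 1.72 TPM (SD, n = 3 each). CORO1A was 14.6 ± 1.89% of the TPM of the type I coronins in HA-TAZ and 13.1 ± 3.05% in controls. CORO1C was the most abundant of them, at 48.3 ± 6.87 and 54.0 ± 7.70 TPM as deposited. CORO1B was at 9.12 ± 2.17 and 9.68 ± 1.06 TPM and CORO2A was under 1 TPM. On scaled TPM the log2 differences were 0.14 for CORO1C and 0.18 for CORO1B, neither called.

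CAPG caps the fast-growing ends of filaments. It was at 10.9, 9.74 and 9.29 scaled TPM in HA-TAZ 1, 2 and 3 and at 9.33, 8.56 and 8.86 in control a, b and c. The ranges overlapped, with a log2 difference of 0.14 (SE 0.08) that was -0.13 as deposited. CAPG was 77.6 ± 3.72% and 76.6 ± 4.06% of the TPM of CAPG and GSN (gelsolin), in HA-TAZ and controls. Of the related severing and capping proteins, GSN was at 2.60 and 3.03 TPM, AVIL at 5.69 and 6.59, SCIN at 1.89 and 2.16, and SVIL at 10.4 and 10.9. On scaled TPM their log2 differences were 0.05, 0.08, 0.07 and 0.20, none called.

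ARHGDIB is a regulator of signalling to the cytoskeleton in blood cells. It was at 1.24, 2.10 and 1.06 scaled TPM in HA-TAZ 1, 2 and 3 and at 0.676, 0.893 and 0.563 in control a, b and c. The groups did not overlap, but HA-TAZ 2 stood apart from the other 2 HA-TAZ libraries, and the log2 difference of 0.51 (SE 0.19) was not called. As deposited it was 0.36 (SE 0.21), also not called. Its mean over 6 libraries was 1.07 TPM, and its control mean of 0.795 TPM was under the filter, so it was tested through its HA-TAZ values. Without HA-TAZ 2 it was not tested at all. The authors' deposited table gives 39.1 estimated counts for ARHGDIB in a typical library, against 228 for PLEK and 11820 for LCP1. A typical library here is a mean on the natural log scale over both groups. For PLEK it therefore lies above the control libraries and below the HA-TAZ libraries. The broadly expressed ARHGDIA was at 97.9 TPM in both groups as deposited, with a log2 difference of 0.30 on scaled TPM that was not called. ARHGDIB was 1.32 ± 0.567% of the summed TPM of ARHGDIA, ARHGDIB and ARHGDIG in HA-TAZ and 0.785 ± 0.194% in controls. ARHGDIG was at 2.54 and 3.01 TPM.

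All 10 members were tested: 3 were called higher (PLEK, LCP1 and TMSB4X) and 7 were not called. Over all tested genes 7.29% were called, 4.67% higher and 2.63% lower (1057 and 595 genes). The split turned with the scaling, to 261 higher and 3068 lower as deposited and 660 higher and 859 lower with factors from protein-coding genes. Nothing is read from the members' count, since the choice used this contrast. The groups did not overlap in scaled TPM for 5 members (LCP1, PLEK, TMSB4X, ARHGDIB and ARPC1B), against 38.5% of all tested genes. The log2 difference was positive for 8 members and negative for 2 (LSP1 and HCLS1), with a median of 0.23 against -0.03 over all tested genes. With TPM as deposited these medians were -0.04 and -0.27.

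**Figure D2:**
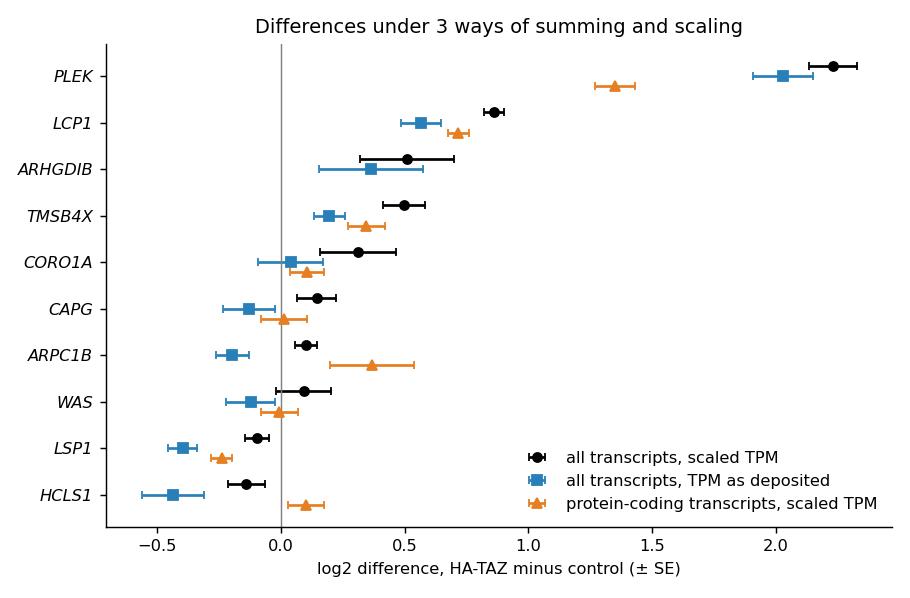
Log2 difference of each member, HA-TAZ minus control (axis, with bars for 1 SE, n = 3 libraries a group), from all transcripts on scaled TPM (black circles), all transcripts on TPM as deposited (blue squares) and protein-coding transcripts alone (orange triangles, absent for ARHGDIB, which was then too low). LCP1, PLEK, ARHGDIB, TMSB4X and CORO1A lie right of 0 in every fit shown, while CAPG, ARPC1B, WAS and HCLS1 change side.

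Levels of different members can be set side by side in TPM, which is corrected for length. As deposited, TMSB4X was the most abundant in both groups, followed by LSP1 and ARPC1B. The next places were taken by LCP1 and HCLS1 in HA-TAZ, whose ranges overlapped, and by HCLS1 and then LCP1 in controls. In HA-TAZ, CORO1A, CAPG and PLEK followed with overlapping neighbours, whereas in controls PLEK was lower than WAS, and in HA-TAZ it was above WAS in all 3 libraries. ARHGDIB was the lowest in both groups. In controls HCLS1 overlapped ARPC1B, and CORO1A overlapped CAPG.

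Transcripts were examined next, since total RNA contains both mature and partly spliced forms. The 2 transcripts of PLEK were both higher: ENST00000474788.1, a retained-intron transcript in GENCODE 29 that made up 67.2% of PLEK TPM, was at 4.16, 5.88 and 4.64 TPM in HA-TAZ 1, 2 and 3 and at 0.561, 0.701 and 0.644 TPM in control a, b and c. The protein-coding ENST00000234313.7 was at 2.36, 2.52 and 2.09 TPM and at 0.420, 0.296 and 0.387 TPM. The groups were apart for both transcripts, and the coding one was 32.4 ± 3.28% of PLEK in HA-TAZ and 36.7 ± 6.58% in controls (SD, n = 3 each; exact two-sided permutation p = 0.4). So the higher PLEK TPM included the coding transcript, while most of the TPM, which is corrected for length, lay in the retained-intron form in both groups. By the authors' estimated counts in a typical library the order was the other way. These were 63.6 for the retained-intron transcript and 165 for the coding one. For LCP1, ENST00000323076.2, a coding transcript, held 93.5% of the TPM, and ENST00000451311.2 held 99.0% of TMSB4X.

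In the limma fit over transcripts, 3 transcripts of members were called, all higher (1 of LCP1 and both of PLEK), where 0.564% of 57448 tested transcripts were called, 0.456% higher and 0.108% lower. In the authors' deposited table, 71 of 111 member transcripts had a q-value, and 6 were higher and 2 lower at q under 0.05. Over all transcripts with a q-value in that table, 5.68% were under 0.05, 4.08% higher and 1.60% lower. The effects of that table, natural logs of HA-TAZ over control, were 2.23 and 2.07 for the PLEK transcripts, 0.625 for the main LCP1 transcript and 0.350 for that of TMSB4X. The others under 0.05 in the authors' deposited table were a second transcript of TMSB4X, ENST00000380636.1, and 3 of HCLS1: the coding ENST00000314583.3 was higher by 0.196 and ENST00000491824.1 and ENST00000487290.1 were lower.

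For HCLS1 the main coding transcript was level between the groups as deposited, at 39.3, 44.5 and 40.8 TPM in HA-TAZ 1, 2 and 3 and at 40.3, 45.1 and 42.9 TPM in control a, b and c. On the scaled values its log2 difference was 0.25 (SE 0.09), not called by limma. The coding transcripts together were at 45.8 ± 0.376 scaled TPM in HA-TAZ against 38.6 ± 4.49 in controls, without overlap. The 10 transcripts not annotated as coding were together at 21.4 ± 4.01 TPM in HA-TAZ against 42.9 ± 13.2 TPM in controls. The main transcript was thus 66.1 ± 2.72% of HCLS1 in HA-TAZ and 50.6 ± 8.58% in controls (SD, n = 3 each). The groups did not overlap, but the exact two-sided permutation p was 0.1, the smallest that 3 against 3 libraries allow, and 0.5 after Benjamini-Hochberg adjustment over the 10 members. One transcript, ENST00000464274.1, annotated as subject to nonsense-mediated decay, varied from 0 to 21.3 TPM between controls and from 0 to 4.11 TPM in HA-TAZ. With protein-coding transcripts only, the log2 difference of HCLS1 was 0.10, the opposite sign to all transcripts.

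For CAPG the main transcript ENST00000409921.1 was 20.4% to 38.2% of the TPM in HA-TAZ and 38.4% to 41.7% in controls (exact two-sided permutation p = 0.1, adjusted p = 0.5). ENST00000263867.4 and ENST00000409670.1 held a further 32.3% and 10.9% of CAPG, and all 3 are annotated as coding. For ARPC1B the retained-intron transcript ENST00000484600.2 held 29.6% and the coding ENST00000252725.5 27.2%, and ENST00000481997.1, also a retained intron, 16.1%. The coding ENST00000252725.5 was at 25.2 ± 1.61 TPM in HA-TAZ against 19.0 ± 5.54 TPM in controls, and was not called. LSP1 had 93.1% in ENST00000311604.3, WAS 74.6% in ENST00000376701.4 and CORO1A 68.7% in ENST00000219150.5, all coding, with a further 11.1% of CORO1A in the retained-intron ENST00000562129.1. ARHGDIB was divided between ENST00000539131.1 (52.9%, no coding annotation) and the coding ENST00000536592.1 (39.5%). The share of the main transcript overlapped between groups for the 8 members other than HCLS1 and CAPG. How often this share is without overlap over all genes was not determined, so nothing is read from this count.

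**Figure D3:**
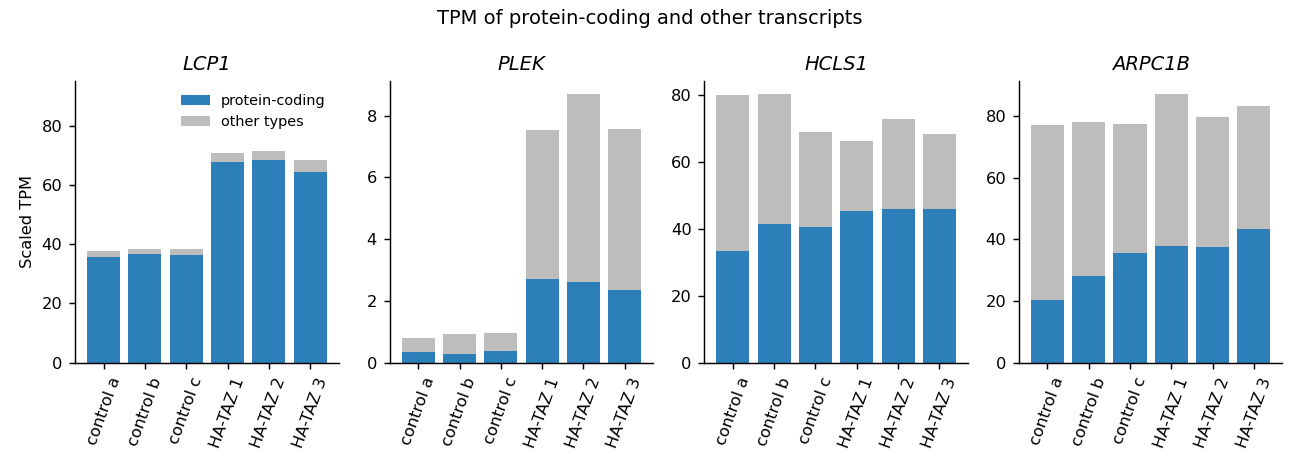
Scaled TPM of LCP1, PLEK, HCLS1 and ARPC1B in each of the 6 libraries, as stacked bars of protein-coding (blue) and other (grey) transcripts. In PLEK both kinds are higher in HA-TAZ, and in HCLS1 the other transcripts are at 23.5 ± 2.98 scaled TPM in HA-TAZ against 37.9 ± 9.14 in controls (SD, n = 3 each).

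Besides the members, 119 genes of the actin pathways in 8 lists by function were listed, of which 108 were tested. Of these, 15 were called higher (13.9%) and 2 were called lower (1.85%) against 4.67% and 2.63% of all tested genes. Their median log2 difference was 0.09 against -0.03 over all tested genes. With protein-coding transcripts only, a setting chosen after seeing the data, 12 pathway genes were called higher and 10 lower. In that setting 997 genes were called higher and 991 lower of 10527 tested, 18.9% in either direction. On the deposited scale 1 of the 108 pathway genes (TMSB10) was called higher and 15 lower. Over all 22651 tested genes, 261 were called higher and 3068 lower on that scale. Of the 15 called higher on scaled TPM, 10 had a positive difference as deposited and 5 a negative one (ACTR3, PFN1, CFL1, MYO9B and CDC42). Calls of higher pathway genes fell to 0 without HA-TAZ 1, HA-TAZ 2 or control b, to 1 without HA-TAZ 3, to 5 without control a and to 6 without control c. All adjusted p-values below are from limma over all tested genes, on scaled TPM. At an unadjusted limma p under 0.05 were 6959 of the 22651 tested genes, in either direction. The unadjusted counts of the lists below are to be read beside that share.

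At an unadjusted limma p under 0.05, 8 of 20 actin and monomer-binding genes were higher and 1 lower. After adjustment 4 of the 20 were called higher. Besides TMSB10 these were WDR1, a cofactor of actin disassembly, at 0.37 (adjusted p = 0.0191), CFL1, cofilin, at 0.27 (adjusted p = 0.0306), and PFN1, profilin, at 0.28 (adjusted p = 0.0416). ACTB was at 785 ± 9.25 and 743 ± 107 scaled TPM and ACTG1 at 938 ± 38.7 and 771 ± 44.7, neither called.

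Of 19 bundling and cortex genes 7 were called higher. At an unadjusted limma p under 0.05, 11 were higher and 1 lower, where 6959 of 22651 tested genes passed in either direction. FLNA, filamin A, was at 207, 196 and 186 scaled TPM in HA-TAZ 1, 2 and 3 and at 132, 140 and 136 in control a, b and c, a log2 difference of 0.52 (adjusted p = 0.0114), and carries a second gene ID with the same values. MARCKS and its relative MARCKSL1, protein kinase C substrates at the membrane, were each higher by 0.48 (adjusted p = 0.0155 and 0.0194). EZR, MYO9B and TAGLN2 were also called higher. FSCN1, fascin, was listed below the filter.

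In the Arp2/3 list 1 of 9 other subunits was called higher, ACTR3 at 0.28 (adjusted p = 0.0276), with a difference of -0.02 as deposited. At an unadjusted limma p under 0.05, 3 of the 9 were higher and 0 lower. Of 12 other WASP and WAVE genes tested, 0 were called by limma, and the median was -0.06. At an unadjusted p under 0.05, 2 were higher and 2 lower, where 6959 of 22651 tested genes passed in either direction. Of 13 capping and severing genes 1 was called, the end-capping protein EPS8, which was lower, at -0.71 (adjusted p = 0.0232). Without adjustment 3 of them were higher and 3 lower at a limma p under 0.05. Of 7 tested pleckstrin relatives and protein kinase C genes 1 was called, PRKCA, which was lower, at -0.36 (adjusted p = 0.0394). Without adjustment 0 of them were higher and 3 lower at a limma p under 0.05. Among the 15 tested paralogues of members, TMSB10 was the 1 that was called. Without adjustment 4 of the paralogues were higher and 0 lower at a limma p under 0.05.

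**Figure D4:**
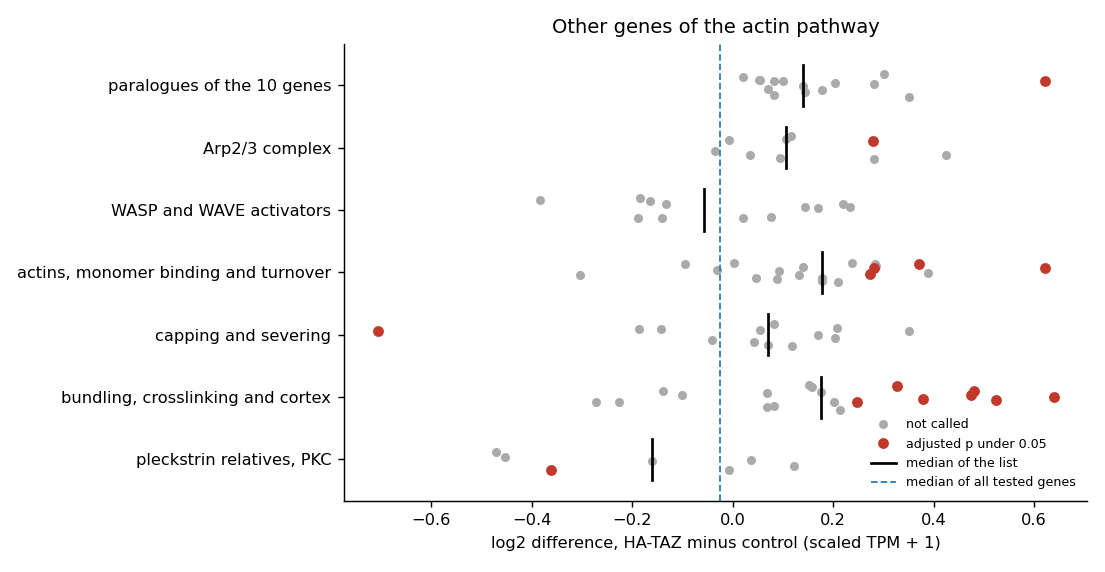
Log2 difference, HA-TAZ minus control on log2(scaled TPM + 1), of the tested genes other than the members in 7 of the 8 lists, with called genes in red, the median of each list as a black bar and that of all tested genes as a dashed line. The bundling list holds 7 called genes of 19, and EPS8 and PRKCA are the called genes below 0.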

How the data were processed

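TPM per transcript was deposited by the authors for 6 libraries. Per the submitters' processing notes, kallisto 0.46.0, sleuth 0.30.0 and GRCh37 were used. The annotation release and the use of strand are not given in the sources used here. The authors' deposited table, per the file headers, holds p-values, q-values, effects and mean estimated counts on a natural log scale. TPM was summed per Ensembl gene ID and divided by a median-of-ratios factor over 21512 genes above 0 in all libraries. A mean of 1 TPM or more over the libraries was required for testing with limma 3.58.1 (intensity trend, pseudocount 1, Benjamini-Hochberg, two-sided) in R 4.3.3. Shares were tested by exact permutation, with a smallest p of 0.1. Transcript types came from GENCODE 29 and covered 84.7% of transcripts. The members and lists were chosen with earlier results of these data known. Named were all members, all paralogues, at most 4 called genes per list and direction by smallest adjusted p, and transcripts with at least 10% of a gene's TPM; EZR, MYO9B, TAGLN2, ACTB, ACTG1 and single marker genes were added after their values were seen. Some listed genes are not reported here. Alternatives changed the scaling, pseudocount, filter, variance prior, transcripts and libraries. The fit was tested on simulated data, where false calls ran slightly above the nominal rate; the tolerance of that test was widened after a first failure. Python 3.11.15 was used for tables.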

Additional observations from a re-analysis of the deposited data

How the results depend on the processing

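LCP1 and PLEK were called higher under every alternative in which they were tested; PLEK was not tested at a mean TPM of at least 5. LSP1 was called lower, as the 1 member lower, with TPM as deposited (-0.40) and with protein-coding transcripts only (-0.24), the latter chosen after seeing the data. Signs turned for WAS (-0.12 as deposited, -0.0063 with coding transcripts), ARPC1B (-0.20 as deposited), CAPG (-0.13 as deposited) and HCLS1 (0.10 with coding transcripts); the cause was not tested. Of all genes, 1057 were called higher and 595 lower. The counts were 261 and 3068 as deposited, 500 and 191 without a filter, and 461 and 297 without a trend. Scaling on coding genes gave 660 and 859, and coding transcripts 997 and 991 of 10527 tested genes. Leaving out 1 library gave 95 to 365 higher and 23 to 105 lower. The other pathway genes, 15 higher and 2 lower, gave 1 and 15 as deposited and 9 and 5 with scaling on coding genes. They gave 7 and 1 without a filter, 7 and 1 without a trend, and 12 and 10 with coding transcripts. At a mean TPM of at least 5 they gave 19 and 4, where 1513 and 727 of all tested genes were called. Leaving out 1 library gave 0 to 6 higher and 0 lower, and the fits with 2 libraries in a group rest on the spread of the others. Transcripts of members called higher were 3 by limma, and 6 or 5 by the authors' q under 0.05 or 0.01; lower were 0, and 2 at q under 0.05. The difference in the share of the main transcript, in percentage points, changed sign without 1 library, over ranges of -0.765 to 0.437 for LCP1, -11.1 to 0.297 for CORO1A, -5.84 to 3.80 for WAS, -8.11 to 8.33 for ARHGDIB, -4.73 to 1.93 for ARPC1B and -0.00856 to 0.0563 for TMSB4X. No paired analysis was run, because control columns carry numbers under a name that no wild type label uses. Depth per library is unknown, which limits PLEK, WAS and ARHGDIB most.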

Other observations

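VIL1, villin, an actin bundling and severing protein best known from intestinal epithelium, was at 53.6 ± 0.974 TPM in HA-TAZ against 51.6 ± 3.30 TPM in controls (SD, n = 3 each). That is above GSN, AVIL, SCIN and SVIL in the same libraries. On scaled TPM its log2 difference was 0.35, not called (limma adjusted p = 0.0887), and 0.06 as deposited. On scaled TPM the plasma cell markers that were called went opposite ways: SLAMF7 at 0.95 (limma adjusted p = 0.0128) and CD38 at -0.61 (limma adjusted p = 0.0226), called in 4 and 1 of 6 fits without 1 library. With TPM as deposited SLAMF7 was called higher, and CD38, IGJ, TNFRSF17, MZB1 and XBP1 were called lower.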
